A study of Mus musculus with 696 samples.

Results

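Basal keratinocytes outside the bulge were taken from single-cell RNA sequencing of the Lrig1 lineage in mouse tail skin as the 80 of 696 cells with the highest value of a score. The score was the mean z-score of 5 genes of basal cells (Krt5, Krt14, Itga6, Itgb4 and Col17a1) minus the mean z-score of 4 genes of bulge stem cells (Lgr5, Thbs1, Grem1 and Sfrp1), each z-score being taken on log2 of CPM plus 1 over all 696 cells, where CPM is the count of a gene scaled to a total of 1e+06. These 9 genes chose the cells, so their levels are given as a description and without a test. The cells are called basal cells below, and the other 616 cells are called the remaining cells.

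The study asked whether earlier injury leaves a memory in epithelial cells that alters how they meet a later injury. Full-length single-cell RNA sequencing (Smart-seq2) was carried out at 4 time points. Unwounded skin is written 0w, the first week and the eighth week of healing from wound 1 are written 1w pw1 and 8w pw1, and the first week of healing from wound 2, which the labels give as week 9, is written 1w pw2. All groups were mice with the Lrig1-EGFP-ires-CreERT2 allele and, as reporter, Rosa26-fl/STOP/fl-tdTomato on a CBA C57BL/6 mixed background, and all of them, the unwounded group included, had hydroxytamoxifen put on the tail skin 1 time before any wounding. The female mice were labelled as young adults and wounded with a punch through the whole skin, and tdTomato+ cells were sorted from tissue that held both the wound bed and hair follicles away from it. The lineage label therefore covers cells that descend from cells with an active Lrig1 promoter at the time of the hydroxytamoxifen, in any layer that the descendants had reached. Each time point had 2 plates of single cells, called replicates 1 and 2. The methods describe repeated experiments on several mice, but the labels tie no plate to an experiment or a mouse, so p-values measure the spread between plates, which may be technical in part. The titles carry a tag, RepC at 0w, RepG at 1w pw1, RepB at 8w pw1 and RepF at 1w pw2, the same on both plates of a time point. What the tag marks is not stated in the labels, so it cannot be told apart from the time point.

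Basal keratinocytes are the dividing cells that rest on the basement membrane of the epidermis and of the outer layer of the hair follicle. Keratins 5 and 14 make up their cytoskeleton, and hemidesmosomes built from the integrin α6β4, collagen XVII, plectin and BP230 anchor them to laminin 332 in the membrane below. In tail skin such cells lie in the epidermis between follicles and in the upper follicle, where Lrig1 marks stem cells, while the bulge lower down holds a separate pool of stem cells marked by Lgr5. After a wound, basal cells at the edge turn on keratins 6, 16 and 17, loosen their contacts and move over the wound bed.

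The promoters of 3 genes are printed because the results below turn on them. Lamb3 had the highest median ratio to the remaining cells, Col17a1 is a gene of the score, and Gjb2 had 0 counts before wounding and was called at 1 week after both wounds. The sequences are those of RefSeq on the GRCm38.p6 assembly, from 250 bases before to 50 bases after an annotated start of transcription, read 5′ to 3′ on the strand of the gene. Lamb3 lies at chr1:193301744-193302043 on the plus strand (the first of 2 entries, inside the span of the gene, other transcripts of which start further upstream), Col17a1 at chr19:47691993-47692292 on the minus strand and Gjb2 at chr14:57104653-57104952 on the minus strand.
Lamb3: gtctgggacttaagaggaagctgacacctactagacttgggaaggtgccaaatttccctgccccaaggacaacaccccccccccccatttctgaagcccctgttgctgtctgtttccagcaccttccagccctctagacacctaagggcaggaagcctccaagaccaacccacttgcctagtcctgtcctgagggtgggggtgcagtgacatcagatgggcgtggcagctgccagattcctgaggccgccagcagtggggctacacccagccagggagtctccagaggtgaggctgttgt
Col17a1: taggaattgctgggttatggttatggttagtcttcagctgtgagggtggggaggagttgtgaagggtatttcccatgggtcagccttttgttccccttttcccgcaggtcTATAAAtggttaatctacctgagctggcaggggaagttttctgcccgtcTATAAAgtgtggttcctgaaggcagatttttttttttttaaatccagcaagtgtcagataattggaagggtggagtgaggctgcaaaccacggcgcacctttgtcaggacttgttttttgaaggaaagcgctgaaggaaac
Gjb2: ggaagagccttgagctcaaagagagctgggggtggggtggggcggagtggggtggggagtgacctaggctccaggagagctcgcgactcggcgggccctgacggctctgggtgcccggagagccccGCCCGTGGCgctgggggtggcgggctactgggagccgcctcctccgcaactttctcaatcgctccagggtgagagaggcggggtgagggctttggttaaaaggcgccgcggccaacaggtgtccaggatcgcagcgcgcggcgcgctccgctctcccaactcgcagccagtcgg
Capitals mark matches to 1 of 3 strings searched on both strands. The strings were TGANTCA, the letters of the AP-1 site, GCCNNNGGC, the letters of the AP-2 site, and the letters TATAAA of the TATA box, which read as TTTATA on the opposite strand. TGANTCA was held by 7.81% of the 32851 promoters of that length in the table, GCCNNNGGC by 16.6% and TATAAA by 13.6%. Col17a1 held 2 matches to TATAAA, Gjb2 held 1 match to GCCNNNGGC, and Lamb3 held no match to any of the 3 strings. Of the 14 genes of a hemidesmosome and basement membrane list 10 had a promoter in the table, and 0 of them held TGANTCA, 3 held GCCNNNGGC and 0 held TATAAA. Of the 14 genes of a wound keratinocyte list 10 had a promoter in the table, and 3 held TGANTCA, 5 held GCCNNNGGC and 3 held TATAAA. Such matches describe these windows and are not shown to be sites.

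The genes of the score chose the cells, so their values describe the choice and are no check of the label. Krt5, the keratin partner of Krt14, was detected in 79 of the 80 basal cells and in 331 of the 616 remaining cells, and its level was higher in basal cells on all 7 plates that held any, with a median log2 ratio of 2.70. The median log2 ratio over plates was 2.01 for Krt14, 2.38 for Itga6 and 3.19 for Itgb4, the integrin subunits of the hemidesmosome, and 3.04 for Col17a1, collagen XVII. Each of these was higher on all 7 plates, as the score requires on balance. Lgr5, a receptor for R-spondin in bulge stem cells, was detected in 1 basal cell, Grem1 in 0 and Sfrp1, an inhibitor of Wnt signalling, in 7, but Thbs1, thrombospondin, was detected in 17. Thbs1 was above the remaining cells on 1w pw2 replicate 1 (log2 ratio 1.54), which goes against the name on that plate. It was near level on 8w pw1 replicate 2 (-0.06) and lower on the other plates. Genes of a bulge list that shares no gene with the score were present as well: Krt15, a keratin of bulge and basal cells, was detected in 51 and Postn, periostin, in 41 of the 80 cells. Postn stands on that list here, but the study uses it as a marker of the infundibulum, the mouth of the follicle. The 11 measured genes of the list came to 3316 and 3627 CPM in basal cells on the 0w plates, above the 2574 and 941 CPM of the remaining cells, and they were below the remaining cells on the other 5 plates. The low counts of Lgr5, Grem1 and Sfrp1 follow from the score, and the bulge list was not low in the basal cells of unwounded skin, which goes against the name there. The score has no gap at its threshold. The last cells taken had scores of 1.01, 1.00 and 0.996 and the first cells left out had 0.983, 0.980 and 0.969, against a highest score of 1.86 and a median of 1.24 among the basal cells. Ranking on the 5 basal genes alone kept 45 of the 80 cells, and adding 10 CPM in place of 1 CPM before the log kept 70.

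Basal cells were found at all 4 time points, but on 7 of the 8 plates. They were 17 of 88 cells on 0w replicate 1 (19.3%, exact 95% binomial interval 11.7 to 29.1) and 8 of 91 on replicate 2 (8.79%, 3.87 to 16.6). At 1w pw1 they were 6 of 89 (6.74%, 2.51 to 14.1) and 5 of 79 (6.33%, 2.09 to 14.2), and at 8w pw1 they were 21 of 85 (24.7%, 16.0 to 35.3) and 14 of 87 (16.1%, 9.09 to 25.5). At 1w pw2 replicate 1 held 9 of 86 (10.5%, 4.90 to 18.9), whereas replicate 2 held 0 of 91, which allows a share of up to 3.30% by the limit of 3 counts and 3.97% by the exact interval, and its highest score, 0.980, was rank 82. The shares on the 1w pw1 plates were below those of both 8w pw1 plates and of both 0w plates, while the 0w and 8w pw1 shares overlapped. The score chose the cells and the sort drew from mixed tissue, so these shares describe the plates and were not tested. Every value for 1w pw2 below therefore rests on 1 plate, which is assumed to vary like the plates of the other time points.

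**Figure D1:**
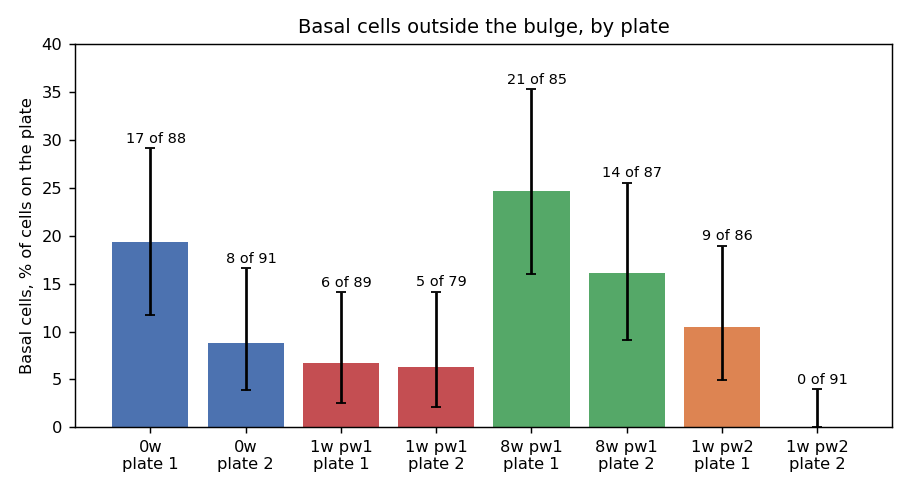
Share of the cells on each plate, in percent, that belong to the 80 basal cells, with exact 95% binomial intervals and the number of cells over each bar. The 8w pw1 plates have the highest shares together with 0w replicate 1, and 1w pw2 replicate 2 has 0 of 91.

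Basal cells held a median of 126552 counts (7752 to 1413810) and 4574.5 genes, against 134539 counts and 4468.5 genes in the remaining cells, and the median mitochondrial share was 16.6% against 20.6%. Depth and quality moved with the time point: the median basal cell had 126679 counts and 4336 genes at 0w, 336973 and 6286 at 1w pw1, 93268 and 4375 at 8w pw1, then 191108 and 6213 at 1w pw2, and the median mitochondrial share was 15.5% and 29.8% on the 0w plates, 15.7% and 19.2% at 1w pw1, 19.7% and 15.4% at 8w pw1, then 10.9% at 1w pw2. Their part in the changes over time was not tested. Their summed counts came to between 1412820 and 2757130 per plate. The deepest cell took between 12.1% and 69.1% of a plate's sum, the last on 0w replicate 2. That cell stood apart from the other 7 basal cells of its plate: it held 61648 CPM of the defensin gene Defb6 against 25.3 in the others, 3578 against 45.8 CPM of Krt10 and 2528 against 14.2 CPM of Krt79. Results on these 3 genes are given with their values without that cell, and every count of changed genes was repeated without the deepest cell of each plate, an alternative chosen after the data were seen. Across genes the replicate plates correlated at 0.658 at 0w, 0.749 at 1w pw1 and 0.717 at 8w pw1 (log2 CPM, genes not being independent). In sums per plate, fewer cells with a transcript and less of it per cell cannot be told apart.

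Outside the 9 genes of the score, the genes furthest above the remaining cells of the same plate included those of the basement membrane. Among the 3274 genes with a mean of at least 50 CPM in either arm, 95 (2.90%) were higher in basal cells on all 7 plates and 172 (5.25%) were lower, and 7 (0.214%) and 29 (0.886%) were so by more than 2-fold on every plate. Over all 15652 genes, 157 (1.0%) were higher and 778 (4.97%) lower on every plate. The cells were chosen by a score on the same profiles, so these counts are a description. Lamb3, the β3 chain of laminin 332, had the highest median log2 ratio, 3.25 (range over plates 0.55 to 5.24, on log2 of CPM plus 1). Its levels in basal cells were 192 and 17.6 CPM at 0w, 281 and 39.9 at 1w pw1, 231 and 163 at 8w pw1, then 161 at 1w pw2, against 77.9 and 11.7, 6.49 and 2.14, 74.7 and 7.11, and 15.9 in the remaining cells of the same plates. The smallest ratio was on 0w replicate 2 and the largest on 1w pw1 replicate 1, where basal cells were highest, and every plate had more Lamb3 in basal cells. Lamb3 (chr1:193207699-193343878, plus strand, GRCm38) was detected in 78.8% of basal cells, 24.2% of remaining cells, 68.8% of the 80 cells at the bulge end and 12.5% of the 80 cells at the suprabasal end, both ends being sets of the same size scored on bulge or on suprabasal genes.

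Lama3, the α3 chain of the same laminin, had a median log2 ratio of 2.38 (0.74 to 4.30) and was higher on all 7 plates. Tgfbi, a matrix protein that binds integrins, had 2.60 (0.29 to 3.90), and Parva, an adaptor between integrins and actin, had 2.23 (0.25 to 3.68). Of the 13 hemidesmosome and basement membrane genes in the table, all 13 had a median log2 ratio above 0, with a list median of 1.22 beside -0.16 over all genes. On every plate 5 of them were higher, beside 1.0% of all genes. Dst, Plec and Itgb1, which code for BP230, plectin and the integrin β1 subunit, were among the list members with the highest CPM. Dst had a median log2 ratio of 1.00 and was higher on all 7 plates, whereas Plec, at 1.01, was higher on 6 and Itgb1, at 0.88, on 5.

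The other genes with a high median ratio were of several kinds. Ass1, an enzyme of arginine synthesis, had a median log2 ratio of 2.80 (0.40 to 4.04), Pygl, glycogen phosphorylase of liver type, had 2.24 (0.74 to 4.10), and Ndrg1, which is induced by low oxygen, had 2.18 (1.16 to 2.64). Mt2, a metallothionein, had 2.29 (0.11 to 3.15), Ly6c1, a surface protein of the Ly6 family, had 2.59 (0.45 to 4.16), and Cavin3, a coat protein of caveolae, had 2.56 (1.58 to 3.44). All 6 were higher on all 7 plates. Of the 19 glycolysis and hypoxia genes measured, 18 had a median ratio above 0, with a list median of 1.37. On every plate 3 of them were higher, beside 1.0% of all genes. The summed level of that list was 1988 and 1146 CPM at 0w, 8987 and 10824 at 1w pw1, 2133 and 3124 at 8w pw1, then 9744 at 1w pw2 in basal cells, against 1059 and 1070, 1849 and 1828, 1127 and 1465, and 1877 in the remaining cells of these plates. Basal cells had the higher sum on all 7 plates, by the least on 0w replicate 2.

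Among signalling genes, 4 of 20 were higher on every plate, beside 1.0% of all genes. Wnt3, a Wnt ligand, was detected in 33.8% of basal cells, 3.08% of remaining cells, 1.25% of bulge-end and 7.5% of suprabasal-end cells, with a median log2 ratio of 2.10 (0.15 to 5.81). The ligands Wnt10a and Wnt4 had median ratios of 1.90 and 1.15, and Fgfr2, a receptor for fibroblast growth factors, had 1.05. The signalling genes with the highest CPM were Met, Egfr, Fgfr2 and Fzd6, receptors for hepatocyte growth factor, epidermal growth factor, fibroblast growth factors and Wnt ligands. Met, at 1.63, and Fzd6, at 0.51, were higher on 5 plates, and Egfr, at -0.21, was higher on 1. Ccnd1, cyclin D1, was higher on all 7 plates with 1.85, but the cell cycle list of 22 genes had a median of 0.30 with 1 gene higher on every plate. Its genes with the highest CPM were Ccnd2, Pcna, Stmn1 and Ccnd1. Trp63, the transcription factor p63 of stratified epithelia, was at 347 and 361 CPM at 0w, 430 and 330 at 1w pw1, 531 and 755 at 8w pw1, then 393 at 1w pw2, and was higher than in the remaining cells on 5 plates. The basal transcription factor list had a median ratio of -0.12, close to that of all genes, and Trp63, Tfap2a and Bnc1 were among its members of highest CPM.

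**Figure D2:**
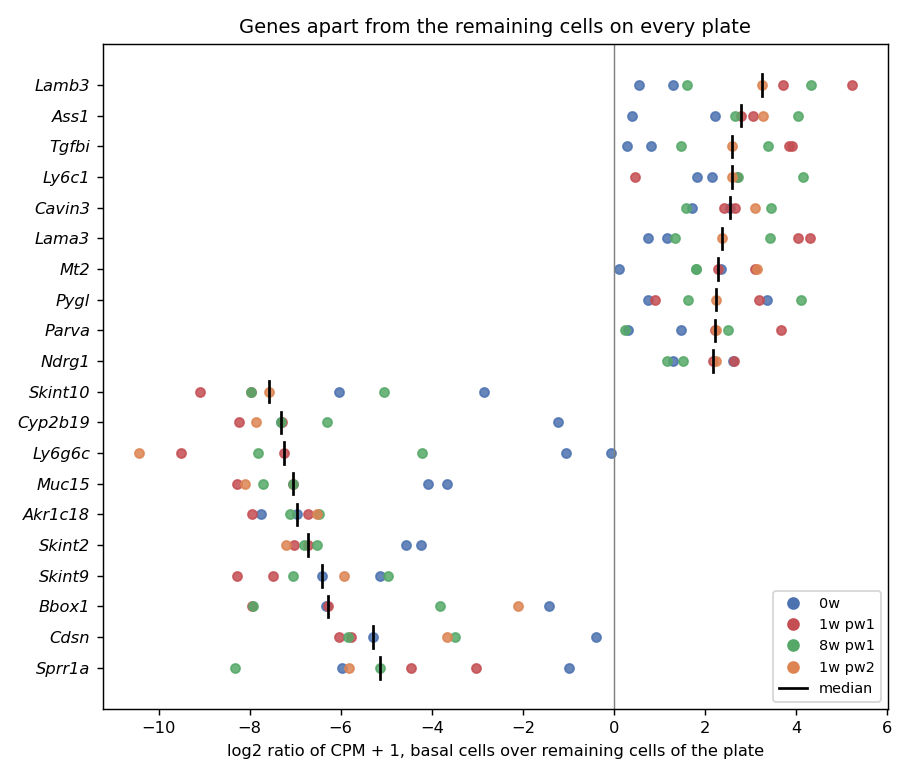
Log2 ratio of basal to remaining cells on each plate (CPM plus 1 in both) for 20 genes, those at either extreme of the median, points coloured by time point and black bars at the median. Every gene stays on 1 side of 0 on all 7 plates, and Lamb3 runs from 0.55 to 5.24.

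The genes furthest below the remaining cells are given next. Skint10, Skint2 and Skint9, members of a butyrophilin-like family of keratinocytes whose near-identical copies can share reads, had median log2 ratios of -7.59, -6.73 and -6.41. The cytochrome P450 gene Cyp2b19 had -7.31, Ly6g6c -7.24, the mucin Muc15 -7.06, the aldo-keto reductase Akr1c18 -6.96 and Bbox1, an enzyme of carnitine synthesis, -6.27. Cdsn, corneodesmosin, had -5.29 and Sprr1a, a cornified envelope precursor, -5.15. Skint2 was detected in 0 of the 80 basal cells, Skint9 in 1 and Ly6g6c in 16.2%, the last against 91.2% of suprabasal-end cells. All of the 13 suprabasal genes had a median ratio below 0 and 4 were lower on every plate, beside 4.97% of all genes. On 0w replicate 2 the summed list was higher in basal cells, at 10229 CPM against 3781 in the remaining cells. On the other plates that sum was lower in basal cells. The list median was -1.85. Its 4 genes with the highest CPM were Krtdap, Krt10, Dmkn and Dsg1a. Krt1, the keratin partner of Krt10 in differentiating cells, was at 40.3 and 0 CPM at 0w, 2.54 and 3.92 at 1w pw1, 497 and 263 at 8w pw1, then 1119 at 1w pw2.

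Markers of other compartments and cell types were then looked at. All 12 sebaceous gland genes had a median ratio below 0, and 6 of them were lower on every plate, beside 4.97% of all genes. The list median was -2.89, beside -0.16 over all genes. Its members of highest CPM were Fasn, fatty acid synthase, Mgst1, Scd1, which desaturates fatty acids, and Acot1. The median of the junctional zone and upper follicle duct list was -2.98, led by Defb6, Cst6, Krt17 and Defb1, and that of the granular list, led by Klk7, Ivl, Casp14 and Cdsn, was -1.88. On 0w replicate 2 their summed levels were higher in basal than in remaining cells, at 52609 against 9718 CPM and 316 against 69.8 CPM. On the other plates both sums were lower in basal cells. The scale list was led by Fabp5, Krt2, Krt77 and Krt36 and had a median of -1.21. Its summed level was higher in basal cells on the 1w pw1 plates, at 62571 against 35642 CPM and 85196 against 23996 CPM. It was also higher on 1w pw2 replicate 1, at 17651 against 6400 CPM, and lower on the 0w and 8w pw1 plates. Of immune markers, Ptprc, Cd3e, Cd3g and Csf1r were each detected in 1 of the 80 cells and Cd68 in 4, and the 5 genes together came to between 0 and 3.25 CPM per plate. Kdr and Rgs5, which mark endothelial cells and pericytes, were detected in 0 cells, Col1a1, collagen I of fibroblasts, in 1, and Tyr, tyrosinase of melanocytes, in 1. The fibroblast list, led by Sparc, Dcn, Pdgfra and Lum, came to between 51.9 and 277 CPM per plate, of which 25.6 to 267 was Sparc, and the melanocyte list, led by Mitf, Pmel, Dct and Tyr, to between 1.09 and 64.5. Pecam1, used as an endothelial marker, was detected in all 80 basal cells and in 98.5% of the remaining cells, so it did not separate cell types in this table.

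How basal cells differ during the first healing was read from 1w pw1 and 0w. In this and the later contrasts, a change in which cells the score took cannot be told apart from a change within basal cells. Plate sums were compared with edgeR's quasi-likelihood test, and calls needed both more than a 2-fold change and an adjusted p (Benjamini-Hochberg) under 0.05. Such calls were made for 166 of the 11460 genes (1.45%), of which 74 rose (0.646%) and 92 fell (0.803%). Wound keratins, cornified envelope precursors, calgranulins and gap junction genes were among those that rose, and genes of the bulge list, the junctional zone and the upper follicle were among those that fell. Of the 12 wound keratinocyte genes that passed the filter on low counts 10 rose and 0 fell, beside the 0.646% of all genes, and a low gene could pass only through the time point at which it was high. Scaling every cell equally gave 151 higher and 113 lower. Leaving out 0w replicate 1 gave 293 calls and leaving out 0w replicate 2 gave 98, while 290 were made when 8w pw1 replicate 2 was left out and 77 when 1w pw2 replicate 1 was. The count ran from 31, when only the 4 plates of these time points were fitted, to 619 with DESeq2.

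Krt6a (chr15:101689910-101694307, minus strand), a keratin of activated keratinocytes, was at 110 and 125 CPM at 0w and at 12424 and 12344 CPM at 1w pw1. Krt16 (chr11:100246091-100248902, minus strand), its partner, was at 0.399 and 0.488 CPM and at 6040 and 5887 CPM. Krt6b (chr15:101676023-101680287, minus strand), a near-identical copy of Krt6a with which it can share reads, had 0 counts on both 0w plates and 3288 and 5632 CPM. The 2 plates of each time point lay close to each other for Krt6a and Krt16 and the time points did not overlap, as held for 15.2% of all genes in the higher direction and 21.8% in the lower. At 1w pw1, 1 cell held 70.6% of the Krt16 counts on replicate 1 and 1 cell 72.5% on replicate 2. The other basal cells were at 2318 and 1889 CPM. For Krt6a, 1 cell held 56.7% on replicate 1 and 1 cell 38.8% on replicate 2, with the others at 6667 and 11823 CPM. Krt6a rose by 6.74 ± 0.91 (SE) on the log2 scale (adjusted p = 0.000137), Krt16 was 13592-fold higher (counting interval 3762 to 1.12e+05, adjusted p = 1.49e-06) and Krt6b was at least 6545-fold higher (adjusted p = 1.49e-06). Where a group had 0 counts, the fold is a lower bound that takes 3 counts in that whole group, and for Krt6b the bound was 2944 without 0w replicate 1.

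The calgranulin genes S100a8 (chr3:90668978-90670035, plus strand) and S100a9, which code for calcium-binding proteins of inflamed epidermis, had 0 counts on both 0w plates. S100a8 was at 50255 and 6310 CPM at 1w pw1 and S100a9 at 6243 and 551. Replicate 1 was far above replicate 2 for both, yet neither plate overlapped 0w. S100a8 was at least 47063-fold higher (9573 without 1w pw1 replicate 1, adjusted p = 0.000306) and S100a9 at least 5692-fold (836 without that plate, adjusted p = 1.97e-05). The small proline-rich genes, precursors of the cornified envelope that can share reads within the family, also went from 0 counts: Sprr2a2 to 2357 and 2371 CPM (at least 3585-fold, 1613 without 0w replicate 1, adjusted p = 3.63e-06), Sprr1b to 412 and 921 (at least 964-fold, 433 without that plate, adjusted p = 0.000122) and Sprr2a3 to 109 and 266 (at least 270-fold, 121 without it, adjusted p = 0.00218). Stfa1, a stefin inhibitor of cysteine proteases from another family of close copies, went from 0 counts to 1275 and 1627 CPM (at least 2168-fold, 975 without 0w replicate 1, adjusted p = 0.000309).

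The connexin genes Gjb2, Gjb6 and Gja1 and the desmosomal cadherin gene Dsc2 rose as well. Gjb2 (chr14:57098600-57104702, minus strand), connexin 26, had 0 counts on both 0w plates and 2681 and 1669 CPM at 1w pw1 (at least 3396-fold higher, 1527 without 0w replicate 1, adjusted p = 1.57e-05). Gjb6, connexin 30, was at 0.799 and 0 CPM and at 356 and 492 CPM, a 946-fold difference (counting interval 261 to 7817, adjusted p = 0.0025). Gja1 (chr10:56377330-56402513, plus strand), connexin 43, went from 67.5 and 20.5 CPM to 979 and 1384, a rise of 5.01 ± 0.96 on the log2 scale (adjusted p = 0.006, and 0.0662 with only these 4 plates). For all 3 connexins the plates of the time points did not overlap. Dsc2, desmocollin 2, went from 0.399 and 5.37 to 484 and 482 CPM, a rise of 7.19 ± 1.38 (adjusted p = 0.00621, and 0.0648 with only these 4 plates). Dsc2 and Gja1 were the 2 called of 14 desmosome and cell junction genes, beside 0.646% of all genes. In that list 7 fold changes were above 0 and 7 below, the median was 0.04, and the members of highest CPM were Dsp, Perp, Dsc3 and Gja1. Fabp5 (chr3:10012548-10016607, plus strand), a fatty acid binding protein of proliferating and psoriatic epidermis, went from 19.2 and 478 to 62571 and 85196 CPM, a rise of 7.89 ± 1.32 (adjusted p = 0.00182, and 0.0621 with only these 4 plates). On 0w replicate 2 all Fabp5 counts came from the deepest cell, at 692 CPM. Fabp5 was the 1 called of 3 scale genes tested, beside 1.45% of all genes.

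Of 16 adhesion and migration genes 6 rose and 1 fell, beside 0.646% and 0.803% of all genes, with a median log2 fold change of 5.01 (4.83 with genes at 0 counts set to their bound) beside -0.23 over all genes. Plau, urokinase, went from 5.19 and 1.95 to 78.4 and 116 CPM, a rise of 4.95 ± 1.25 (adjusted p = 0.0448), and it was not called when any 1 of 6 plates was left out, all but 8w pw1 replicate 2 (adjusted p up to 0.153). Tnc, tenascin C, with 0 and 0.488 against 67.7 and 16.3 CPM, was 206-fold higher (counting interval 36.4 to 8180, adjusted p = 0.0341), a call lost without either 0w plate, 1w pw1 replicate 1 or 1w pw2 replicate 1 (up to 0.131). Flrt2, an adhesion and guidance protein, with 0.799 and 0 CPM against 91.6 CPM on the lower of the 1w pw1 plates, was 347-fold higher (95.6 to 2874, adjusted p = 0.014), lost without 0w replicate 2 or 1w pw2 replicate 1 (up to 0.0856). The matrix metalloproteinase genes Mmp3, Mmp9 and Mmp13 were at 268, 316 and 390 CPM on 1w pw1 replicate 1 but at 0 on replicate 2, as on both 0w plates. Their calls (adjusted p = 0.0252, 0.026 and 0.0229) rest on that plate: without it the adjusted p was 1.0 for Mmp3 and Mmp9 and Mmp13 was not tested. All 3 calls were also lost without either 0w plate (up to 0.109 for Mmp13), that of Mmp3 also without 1w pw2 replicate 1. Itgb8, an integrin subunit, fell from 67.9 and 161 to 2.04 and 0 CPM, by 6.73 ± 1.61 (adjusted p = 0.0302), lost without 0w replicate 2, 1w pw1 replicate 2 or 1w pw2 replicate 1 (up to 0.187). The members of that list with the highest CPM were Cd44, Ptn, Itgav and Itga2.

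Most hemidesmosome and basement membrane genes did not pass the test over time, with 1 of 13 called at 1w pw1, beside 1.45% of all genes. Lama3 went from 105 and 66.9 to 610 and 305 CPM, and was at 210 and 592 at 8w pw1, then 200 at 1w pw2. Tgfbi went from 333 and 83 to 2423 and 1361 CPM, and was at 339 and 1060 at 8w pw1, then 1120 at 1w pw2. The list median was -1.47, below that of all genes, with 8 of 13 fold changes below 0.

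Glycolysis and hypoxia genes had fold changes above 0 for 19 of 19 tested, with a median of 2.76, and 2 of them were called, beside 12 with an unadjusted p below 0.05 and 7 called by DESeq2. Over all 11460 genes 74 (0.646%) were called higher, 576 were higher at an unadjusted p below 0.05 and 262 were called higher by DESeq2. Pgk1 (chrX:106187100-106203699, plus strand), phosphoglycerate kinase, went from 153 and 43.5 to 1057 and 1479 CPM, a rise of 3.96 ± 0.98 (adjusted p = 0.0372), a call lost without 0w replicate 2, either 1w pw1 plate or 1w pw2 replicate 1 (up to 0.115). Bnip3 (chr7:138890836-138909519, minus strand), a mitochondrial protein induced by low oxygen, went from 31.1 and 40.5 to 539 and 1333 CPM, a rise of 4.64 ± 1.02 (adjusted p = 0.017, and 0.122 without 1w pw1 replicate 2). Gapdh, Ldha and Pkm, the other genes of the list with the highest CPM, were at 466 and 140, 325 and 391, and 239 and 51.8 CPM at 0w and at 2665 and 1920, 1575 and 3438, and 648 and 579 at 1w pw1, and were not called. Slc2a1 (chr4:119108711-119137983, plus strand), the glucose transporter Glut1, was at 61.9 and 254 CPM at 0w and 332 and 216 at 1w pw1. The plates overlapped, and its log2 fold change of 0.62 ± 0.97 did not pass the test (adjusted p = 0.845). On 0w replicate 2 the deepest cell held 493 of the 519 Slc2a1 counts and the other 7 cells were at 41.0 CPM, and on 1w pw1 replicate 1 another single cell held 335 of 652. The log2 fold change of Slc2a1 was -0.19 without 0w replicate 1, 2.87 without the deepest cell of each plate (adjusted p = 0.0503) and 3.37 with every cell scaled equally, the 1 alternative of 17 that called it (adjusted p = 0.0139).

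Acta2 (chr19:34241090-34255590, minus strand), smooth muscle actin, had 0 counts on both 0w plates and was at 111 and 239 CPM at 1w pw1 (at least 253-fold higher, 114 without 0w replicate 1, adjusted p = 0.00188). It was the 1 called of 2 endothelial and mural genes tested, beside 1.45% of all genes, but Kdr and Rgs5 had 0 counts in all basal cells, and Acta2 was detected in 8 of the 11 basal cells of 1w pw1. Areg, amphiregulin, a ligand of the epidermal growth factor receptor, had 0 counts at 0w and 32.1 and 53.6 CPM (at least 63.0-fold, 28.3 without 0w replicate 1, adjusted p = 0.0202). It was the 1 called of 20 signalling genes, beside 1.45% of all genes, and the call was lost without either 0w plate or 1w pw2 replicate 1 (up to 0.0802). In the metallothionein and oxidative stress list, led by Mt2, Mt1, Gstm1 and Gpx2, a pair of glutathione transferases went opposite ways. Gsta4 went from 0 counts to 138 and 318 CPM (at least 329-fold, 148 without 0w replicate 1, adjusted p = 0.00284), and Gstm1 fell from 381 and 39.6 to 4.07 and 3.92 CPM, by 5.26 ± 1.30 (adjusted p = 0.0385), lost without 0w replicate 1, either 1w pw1 plate or 1w pw2 replicate 1 (up to 0.213).

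Of the 10 bulge list genes tested at 1w pw1, 4 fell, 0 rose and 6 did not pass, beside 0.803% of all genes called lower, with a median log2 fold change of -6.27 (-4.57 with bounds). Krt15 (chr11:100131758-100135928, minus strand) was at 1684 and 1891 CPM at 0w and at 0.509 and 0 CPM at 1w pw1. It was thus close to absent on both wounded plates, 6210-fold lower (counting interval 1114 to 2.45e+05, adjusted p = 1.7e-05). Postn (chr3:54361109-54391037, plus strand) fell from 1177 and 1430 CPM to 0 counts, at least 1504-fold (658 without 1w pw1 replicate 1, adjusted p = 2.8e-05). The deepest cell of 0w replicate 2 held 85.4% of the Krt15 and 73.1% of the Postn counts of that plate. Its other basal cells were at 890 CPM of Krt15 and 1242 CPM of Postn. Nfatc1, a transcription factor of bulge quiescence, fell from 191 and 161 to 5.09 and 0 CPM, by 5.88 ± 1.5 (adjusted p = 0.0472), lost in 7 of 17 alternatives, among them without 0w replicate 2, 1w pw1 replicate 2 or 1w pw2 replicate 1 (up to 0.254). Lhx2, a transcription factor of follicle stem cells, fell from 35.1 and 67.9 CPM to 0 counts, at least 58.1-fold (25.4 without 1w pw1 replicate 1, adjusted p = 0.0378), lost in 9 of 17, among them without 0w replicate 2, either 1w pw1 plate or 1w pw2 replicate 1 (up to 0.228). Itih5, the other of the 4 members with the highest CPM, was at 71.9 and 2.44 CPM at 0w and 64.6 and 1.31 at 1w pw1. Cd34, a surface marker of the mouse bulge, was detected in 14 of the 80 cells. It went the other way, with 86 counts at 1w pw1 and 5 at 0w, and the plates did not overlap. Its log2 fold change of 4.86 was not called (adjusted p = 0.266). Of the 10 bulge list genes tested, 3 had fold changes above 0 and 7 below.

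Of the 11 junctional zone and upper follicle duct genes 3 fell and 1 rose, beside 0.803% and 0.646% of all genes. Krt79 (chr15:101929332-101940324, minus strand), a keratin of the infundibulum, fell from 901 and 1750 CPM to 0 and 1.31 (2241-fold, counting interval 620 to 18507, adjusted p = 0.00189). Krt79 was detected in 5 of the 25 basal cells of 0w, and on replicate 2 the 7 cells other than the deepest were at 14.2 CPM. Without the deepest cell of each plate its log2 fold change was -8.71 in place of -11.12 and was still called (adjusted p = 0.00109). Defb6 (chr8:19225478-19228209, plus strand) fell from 1146 and 42580 CPM to 0 counts, at least 23041-fold and at least 1335-fold without 0w replicate 2, whose deepest cell held most of it (adjusted p = 0.000576). Without the deepest cell of each plate Defb6 was still called, with a fitted log2 fold change of -12.76 (adjusted p = 0.000309). Fst, follistatin, fell from 112 and 48.8 to 0 and 1.31 CPM (146-fold, 40.2 to 1212, adjusted p = 0.0175), lost without 1w pw1 replicate 1 or 1w pw2 replicate 1 (up to 0.179). Klk10, a kallikrein protease, rose from 0 counts to 137 and 34 CPM (at least 140-fold, 51.6 without 1w pw1 replicate 1, adjusted p = 0.0115), lost without either 0w plate or 1w pw1 replicate 1 (up to 0.0843). Aldh3a1 (chr11:61207537-61218421, plus strand), an aldehyde dehydrogenase, fell from 682 and 203 CPM to 0 counts, at least 543-fold (236 without 0w replicate 1, adjusted p = 0.000309). Lrig1 itself, the gene whose promoter drove the Cre recombinase, was at 108 and 8.79 CPM at 0w, 0.509 and 0.654 at 1w pw1, 107 and 6.37 at 8w pw1, then 11.4 at 1w pw2, and was detected in 17 of 25, 2 of 11, 13 of 35 and 1 of 9 basal cells. Ly6a, Sca-1, a surface protein of the upper follicle and epidermis, was at 283 and 39.1 CPM at 0w, 656 and 993 at 1w pw1, 338 and 405 at 8w pw1, then 1081 at 1w pw2 and was not called against 0w.

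Of 12 suprabasal genes tested 2 fell and 0 rose, beside 0.803% and 0.646% of all genes. Krt10 (chr11:99385254-99389364, minus strand) was at 466 and 2485 CPM at 0w and at 13.7 and 17.7 CPM at 1w pw1, so it fell by 6.79 ± 1.17 on the log2 scale (adjusted p = 0.00222, and 0.0601 with only these 4 plates). On 0w replicate 2 the 7 cells other than the deepest were at 45.8 CPM of Krt10, and without the deepest cell of each plate the log2 fold change was -4.61 (adjusted p = 0.00362). In the remaining cells of the same plates Krt10 was at 1051 and 1595 CPM at 0w and at 19283 and 22482 CPM at 1w pw1, the opposite order. Skint3 fell from 85.1 and 435 CPM to 0 counts, at least 282-fold (99.1 without 0w replicate 2, adjusted p = 0.00786), lost without 0w replicate 2 or 1w pw2 replicate 1 (up to 0.0913). The median of the suprabasal list was -0.13 but 0.83 with every cell scaled equally and 1.36 without the deepest cell of each plate, so no direction is given for the list. Scaling moved the median of all genes from -0.23 to -0.43 when library totals were used without TMM at 1w pw1, and from -0.27 to 0.00 at 1w pw2.

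Other lists had few or 0 calls at 1w pw1. With edgeR 0 of 13 basal transcription factors, 0 of 22 cell cycle genes and 0 of 16 dissociation response genes were called, beside 2, 3 and 2 with an unadjusted p below 0.05 and 0 each with DESeq2. Of all 11460 genes tested 166 (1.45%) were called, 1530 had an unadjusted p below 0.05 and 619 were called with DESeq2. Mki67, a marker of dividing cells, was at 50.3 and 124 CPM at 0w and at 0 and 165 at 1w pw1, so the 1w pw1 plates lay on either side of the 0w plates. The dissociation list, led by Fos, Hsp90aa1, Hspa1b and Dnajb1, came to 1998 and 1940 CPM at 0w, 1619 and 1403 at 1w pw1, 1208 and 644 at 8w pw1, then 1375 at 1w pw2. It was highest in unwounded skin, and its part in the results was not tested. Of 9 interferon and antigen presentation genes, among them B2m, H2-K1 and H2-D1, 0 were called, beside 4 at an unadjusted p below 0.05 and 1 with DESeq2. Of 7 sebaceous and 4 granular genes tested 0 were called, beside 1 each at an unadjusted p below 0.05 and 1 and 0 with DESeq2. Of 2 melanocyte and 3 fibroblast genes tested 0 were called, beside 1 each at an unadjusted p below 0.05 and 0 with DESeq2, and no immune gene passed the filter.

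**Figure D3:**
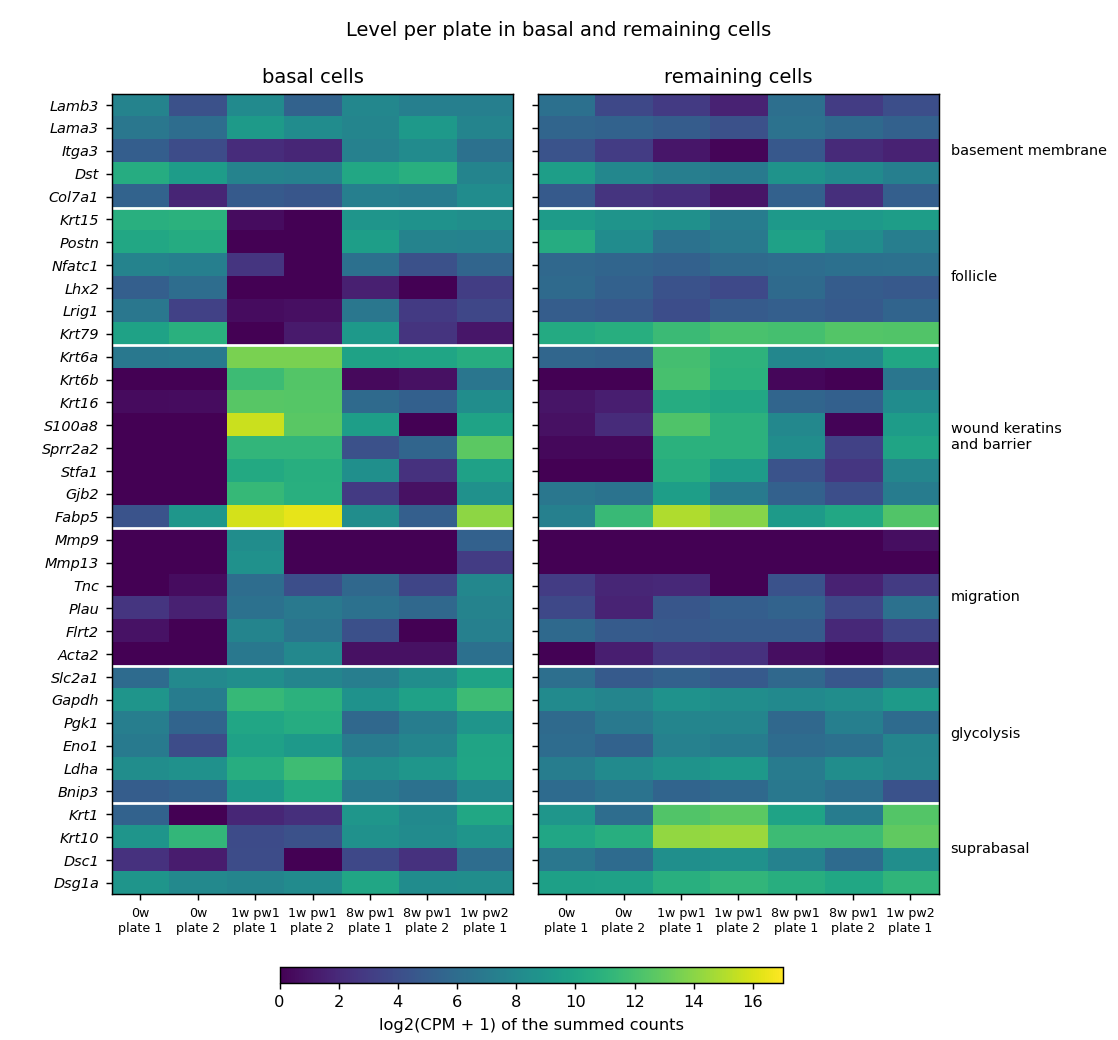
Heat map of log2 (CPM plus 1) in the sums of basal cells (7 plates) and of the remaining cells, with genes in rows by block and plates in columns by time point. In basal cells the wound keratin and barrier block is dark at 0w and bright at 1w pw1, while Krt15 and Postn go from 1684 and 1177 CPM on 0w replicate 1 to 0.509 and 0 CPM on 1w pw1 replicate 1.

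How the basal cells of healed skin differ from those of unwounded skin was read from 8w pw1 and 0w. Calls were made for 5 of 11460 genes with edgeR (0.0436%), of which 4 rose (0.0349%) and 1 fell (0.00873%), while 992 had an unadjusted p below 0.05. The 4 that rose were also called higher at 1w pw1. Krt16 was at 57.3 and 36.8 CPM, 115-fold above 0w (counting interval 31.3 to 953, adjusted p = 0.00968, and 0.0891 without 1w pw2 replicate 1). Csta1, a stefin, was at 137 and 34.7 CPM against 0.799 and 0 at 0w (233-fold, 64.1 to 1930, adjusted p = 0.0174), lost without 0w replicate 2 or 1w pw2 replicate 1 (up to 0.113). Sprr2a2 was at 17.4 and 46.7 CPM against 0 counts (at least 41.5-fold, 18.7 without 0w replicate 1, adjusted p = 0.00968, and 0.113 without 1w pw2 replicate 1). Stfa1 was at 355 and 4.25 CPM against 0 counts, at least 359-fold but at least 6.44-fold without 8w pw1 replicate 1 (adjusted p = 0.0176), lost without that plate, 0w replicate 2 or 1w pw2 replicate 1 (up to 0.276). The gene that fell was the predicted gene model Gm13306, singled out after its values were seen (adjusted p = 0.00683), which had 0 counts on both 8w pw1 plates. With only the 4 plates of these time points 0 genes were called, and the adjusted p was 0.343 for Krt16, 0.276 for Csta1 and 0.331 for Sprr2a2. Levels of the 4 genes that rose lay between those of 0w and those of 1w pw1 on all plates.

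No call was made at 8w pw1 for Krt6a, Krt15 or Postn, though the plates did not overlap. Krt6a was at 880 and 1021 CPM against 110 and 125 at 0w, a log2 fold change of 2.73 ± 0.76 (adjusted p = 0.185). It was called higher in 4 of 17 alternatives, namely with DESeq2 (adjusted p = 0.0432), without TMM (0.00318), with every cell scaled equally (0.0106) and without the deepest cell of each plate (0.00985). Krt15 was at 468 and 412 CPM, at -2.33 ± 0.88 (adjusted p = 0.403), and Postn at 729 and 195, at -1.89 ± 0.91 (adjusted p = 0.573). Plates failed to overlap for 18.7% of all genes in the higher direction and 12.2% in the lower. Slc2a1 was at 151 and 326 CPM, at 0.14 ± 0.97 (adjusted p = 0.999), and its sign turned without 0w replicate 1 (-0.68) or without 8w pw1 replicate 2 (-0.64). Of the wound keratinocyte list 2 of 12 were called higher, Krt16 and Stfa1, beside 0.0349% of all genes. The list median was 4.46 (2.79 with bounds) beside 0.00 over all genes. The other 20 lists had 0 calls with edgeR, among them glycolysis and hypoxia with a median of 1.08, 0 of 19 at an unadjusted p below 0.05 and 0 with DESeq2, and hemidesmosome and basement membrane with a median of 1.65, 5 of 13 at an unadjusted p below 0.05 and 1 with DESeq2. DESeq2 called 5 of 12 wound keratinocyte, 4 of 16 adhesion and migration and 2 of 12 suprabasal genes higher. No other list had more than 1 DESeq2 call. Of all 11460 genes tested 110 were called higher by DESeq2 and 450 were higher at an unadjusted p below 0.05. The count of 5 was 138 and 3 without 0w replicates 1 and 2, 144 and 142 without 1w pw1 replicates 1 and 2, 19 and 15 without 8w pw1 replicates 1 and 2 and 0 without 1w pw2 replicate 1. It was 207 (110 higher, 97 lower) with DESeq2 and 52 (30 higher, 22 lower) without TMM.

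**Figure D4:**
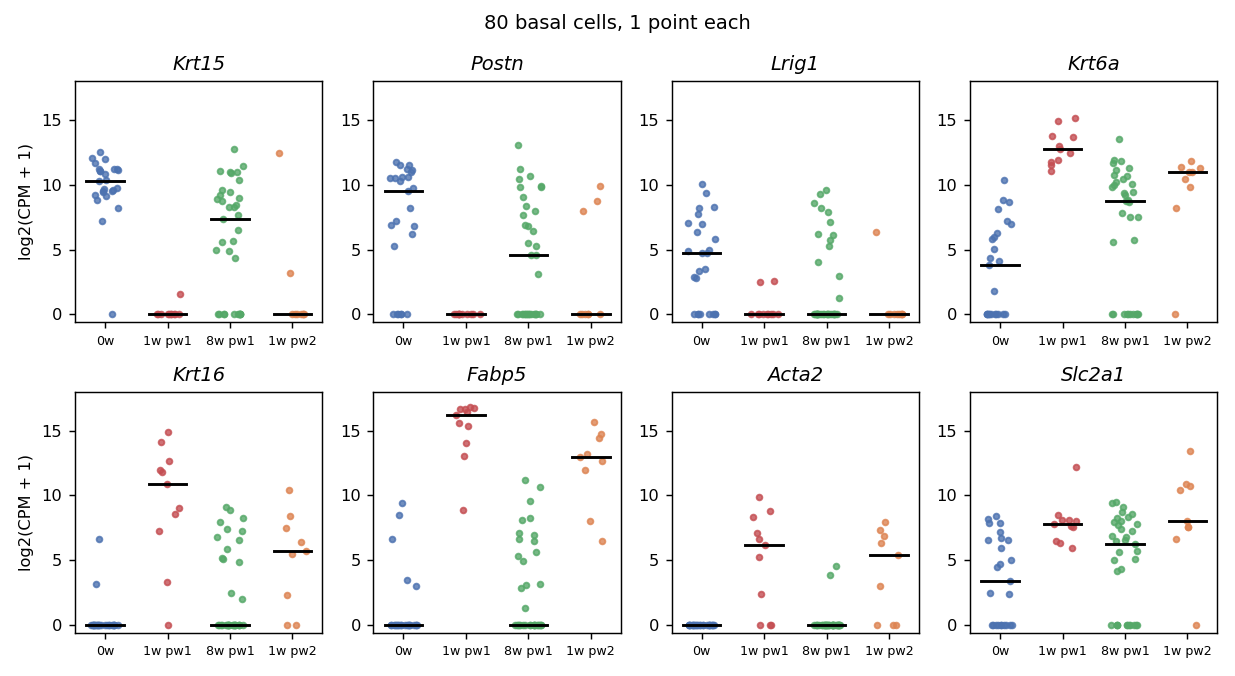
Log2 (CPM plus 1) of 8 genes in each of the 80 basal cells by time point, with bars at the median of the cells. Krt15 was detected in 24 of 25, 1 of 11, 24 of 35 and 2 of 9 cells in the order of the time points, and Acta2 in 0, 8, 2 and 6.

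The second healing was read from 1w pw2 and 0w, with 1 plate of 9 basal cells. With edgeR 20 of 11460 genes were called, all higher (0.175%), and 0 were lower (446 at an unadjusted p below 0.05 and 105 with DESeq2). Sprr2a2 was at 6854 CPM, at least 10398-fold above 0w (4677 without 0w replicate 1, adjusted p = 6.36e-06), Gjb2 at 380 CPM, at least 576-fold (259, adjusted p = 0.000598), and Stfa1 at 846 CPM, at least 1284-fold (578, adjusted p = 0.00229). Krt16, at 315 CPM, was 717-fold higher (counting interval 198 to 5937, adjusted p = 0.000329). These 4 calls held under every alternative run for them. Krt6b was at 99.8 CPM (at least 151-fold, 68.1 without 0w replicate 1, adjusted p = 0.00077) and was not called among the 120 highest-scoring cells. S100a8 was at 929 CPM (at least 1410-fold, 634, adjusted p = 0.0182), S100a9 at 44.5 (at least 67.5-fold, 30.4, adjusted p = 0.0216) and Sprr2a3 at 72.7 (at least 110-fold, 49.6, adjusted p = 0.0361). These 3 calls were lost without either 0w plate, with adjusted p up to 0.107, 0.0939 and 0.117. Thus 7 of the 12 wound keratinocyte genes tested were called higher and 0 lower, with a median of 9.07 (6.43 with bounds) beside -0.27 over all genes. Krt6a, at 1540 CPM, had a log2 fold change of 3.2 ± 0.84 that was not called (adjusted p = 0.197) but was in 4 of 16 alternatives (down to 0.000416).

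Calls outside the wound list at 1w pw2 included Gja1, at 1718 CPM, which rose by 5.04 ± 1.02 (adjusted p = 0.0361, and 0.0832 without 0w replicate 2), and Tnc, at 232 CPM, which was 1054-fold higher (counting interval 188 to 41737, adjusted p = 0.0473). Acta2, at 74.9 CPM, was at least 114-fold higher (51.1 without 0w replicate 1, adjusted p = 0.0298), and Areg, at 135 CPM, at least 205-fold (92.2, adjusted p = 0.0473). Ncapg, a condensin subunit of dividing cells, was at 186 CPM, at least 282-fold higher (127, adjusted p = 0.0182). The calls of Tnc, Acta2, Areg and Ncapg were each lost without either 0w plate (adjusted p up to 0.147, 0.1, 0.172 and 0.0848). Of 22 cell cycle genes 0 were called with edgeR, 1 had an unadjusted p below 0.05 and 0 were called with DESeq2. Krt15, at 335 CPM, had -2.93 ± 1.20 (adjusted p = 0.61, and a value of 0.13 among the 120 highest-scoring cells), and Postn, at 187 CPM, had -3.33 ± 1.29 (adjusted p = 0.59). The plate sums of both were below the 0w plates and above the 1w pw1 plates, but 1 of the 9 cells held 617 of the 618 Krt15 counts and the other 8 were at 0.578 CPM. Postn was detected in 3 of the 9 cells, 1 of which held 248 of its 344 counts. The 1w pw2 plate lay below both 0w plates for 22.9% of all genes and above them for 38.0%. Slc2a1, at 916 CPM, was higher than on any other plate, at 1.81 ± 1.14 (adjusted p = 0.798, and 0.00671 with every cell scaled equally). The glycolysis and hypoxia list had a median of 2.01 with 16 of 19 above 0, 0 called with edgeR, 6 at an unadjusted p below 0.05 and 0 with DESeq2. Of all 11460 genes tested 389 were higher at an unadjusted p below 0.05, 20 were called higher with edgeR and 74 with DESeq2. The count of 20 was 13 without 0w replicate 2, 70 and 75 without 1w pw1 replicates 1 and 2 and 47 without 8w pw1 replicate 2, and it was 179 (74 higher, 105 lower) with DESeq2 and 45 (40 higher, 5 lower) without TMM.

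The second healing was also set against the healed skin before it and against the first healing. Against 8w pw1, 2 genes were called (0.0175%), both higher, while the plate lay above both 8w pw1 plates for 37.3% of all genes and below them for 27.9%. Sprr2a2 rose by 7.47 ± 1.10 (adjusted p = 0.00715), a call lost without 8w pw1 replicate 1 (0.277), and Krt6b, at 0.363 and 0.708 CPM on the 8w pw1 plates, was 208-fold higher (counting interval 56.8 to 1731, adjusted p = 0.013), lost without either 8w pw1 plate (up to 0.703). Gjb2, at 6.48 ± 1.18 (adjusted p = 0.0521), Fabp5, at 6.54 ± 1.29 (0.0947), and Hbegf, a ligand of the epidermal growth factor receptor with 0 counts on both 8w pw1 plates (at least 113-fold, 38.3 without 8w pw1 replicate 1, 0.0947), came next and were not called, although they were in 11, 12 and 10 of 16 alternatives. Against 1w pw1, 2 genes were called (0.0175%), Krt15 and Postn, both higher at 1w pw2. Krt15 was 1171-fold higher (counting interval 209 to 46338, adjusted p = 0.00424, and 0.0643 without 1w pw1 replicate 2), which rests on the 1 cell that held nearly all Krt15 counts of the plate. Postn was at least 217-fold higher (95.1 without 1w pw1 replicate 1, adjusted p = 0.00565), lost without either 1w pw1 plate (up to 0.0814). Fst, 492-fold higher (counting interval 135 to 4072), Lifr, the receptor of leukaemia inhibitory factor, at 7.12 ± 1.40, and Aldh3a1, at least 53.1-fold higher (23.2 without 1w pw1 replicate 1), were not called (adjusted p = 0.0938 each), although they were in 11, 9 and 9 of 16 alternatives. Of the 12 wound keratinocyte genes, 12 had fold changes below 0 in this contrast, with a median of -4.15 and 0 calls with edgeR (8 lower at an unadjusted p below 0.05 and 4 with DESeq2). Over all 11460 genes 178 were lower at an unadjusted p below 0.05, 0 were called lower by edgeR and 8 by DESeq2. The median log2 fold change over all genes was -0.02. A low gene could pass the filter on low counts only through the time point at which it was high. The direction of the 12 wound keratinocyte genes is therefore a description. The 1w pw2 plate lay below both 1w pw1 plates for 20.1% of all genes and above them for 48.4%. The count against 8w pw1 was 11, 11, 12 and 17 without 0w replicates 1 and 2 and 1w pw1 replicates 1 and 2, and 1 without either 8w pw1 plate. That against 1w pw1 was 8 and 12 without 0w replicates 1 and 2, 1 and 0 without 1w pw1 replicates 1 and 2 and 10 without 8w pw1 replicate 2, and it was 17 (14 higher, 3 lower) without TMM.

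**Figure D5:**
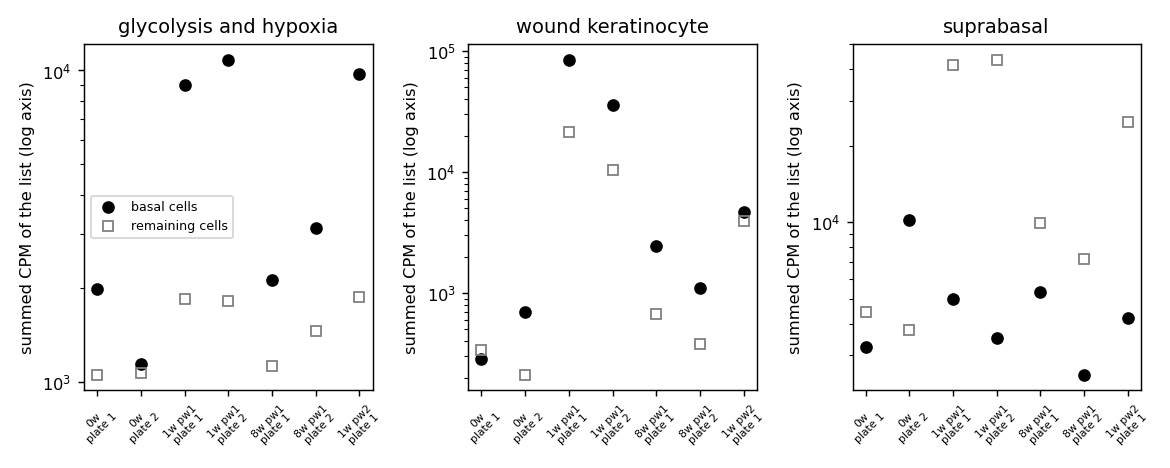
Summed CPM of the glycolysis and hypoxia, wound keratinocyte and suprabasal lists on each plate (log axis), circles for basal cells and squares for the remaining cells. The glycolysis sum of basal cells is 1146 to 1988 CPM at 0w and 8987 to 10824 at 1w pw1, whereas the suprabasal sum of the remaining cells, at 41348 and 43533 CPM at 1w pw1, stands above that of the basal cells, at 5015 and 3510.

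Detection was then counted in single cells, pooled over the plates of a time point, as a description with no test. Krt15 and Krt6a were detected together in 13 of the 25 basal cells of 0w, where 11 held Krt15 alone and 1 held Krt6a alone. At 1w pw1 10 of 11 held Krt6a alone, 1 held both and 0 held Krt15 alone. At 8w pw1 14 of 35 held both, 10 held each alone and 1 held neither, and at 1w pw2 6 of 9 held Krt6a alone, 2 both and 1 neither. The 8w pw1 cells thus included cells with either gene and cells with both. With every cell thinned to 20000 counts, which left out 1 basal cell of 0w and 3 of 8w pw1 as too shallow, Krt15 was detected in 23 of 24, 0 of 11, 19 of 32 and 1 of 9 basal cells in the order of the time points. In the remaining cells the thinned shares were 64.3%, 15.7%, 54.6% and 22.3%. Slc2a1 was detected in 11 of 24, 11 of 11, 20 of 32 and 8 of 9 basal cells after thinning, against 27.3%, 23.1%, 23.1% and 29.3% of the remaining cells. Acta2 was detected in 0 of 24, 5 of 11, 0 of 32 and 5 of 9 basal cells, against 0%, 0.68%, 0% and 6.37% of the remaining cells. Fabp5 was detected in 3 of 24, 11 of 11, 9 of 32 and 9 of 9.

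Whether basal cells changed differently from the remaining cells was tested as a difference of changes, with the plate as a block. At 1w pw1 against 0w the test called 93 of 13922 genes (0.668%), 25 with the more positive change in basal cells (0.18%) and 68 with the more negative (0.488%). It called 29 at 8w pw1 (0.208%), 11 more positive (0.079%) and 18 more negative (0.129%), and 14 for 1w pw2 (0.101%), 8 (0.0575%) and 6 (0.0431%). Gjb2 was called at all 3 time points. It had 0 counts in the basal cells of 0w and a mean of 97.8 CPM in the remaining cells, and 2175 against 441 CPM at 1w pw1 (adjusted p = 5.7e-08), where it was called under every alternative run. Defb6 was called at all 3 as well, with a mean of 21863 CPM in basal and 2787 in remaining cells at 0w and 0 against 8717 CPM at 1w pw1 (adjusted p = 3.54e-07). The 0w mean rests on the 1 cell of replicate 2 that held 87158 of 87174 counts: the other 7 cells of that plate were at 25.3 CPM and replicate 1 at 1146, below the 3822 and 1752 CPM of the remaining cells of these plates. Without the deepest cell of each plate Defb6 was still called at all 3, with differences of -15.57, -4.33 and -4.09 in place of -20.99, -10.24 and -9.76, while with DESeq2 the calls at 8w pw1 and 1w pw2 were lost (adjusted p = 0.151 and 0.489). Leaving out 0w replicate 1 turned the count of 93 into 189, leaving out 1w pw1 replicate 2 into 48, leaving out 8w pw1 replicates 1 and 2 into 156 and 152, and leaving out 1w pw2 replicate 1 into 33. It was 161 (66 and 95) without the deepest cell of each plate, 366 (162 and 204) with DESeq2 and 323 (156 and 167) with every cell scaled equally. The count of 29 was 88 and 3 without 0w replicates 1 and 2, 44 and 46 without 1w pw1 replicates 1 and 2, 72 without 8w pw1 replicate 1, 0 without 1w pw2 replicate 1, 121 (63 and 58) with DESeq2 and 69 (38 and 31) with cells scaled equally, and that of 14 was 78 and 28 without 0w replicates 1 and 2, 38 without either 1w pw1 plate, 65 and 51 without 8w pw1 replicates 1 and 2, 70 (46 and 24) without the deepest cell of each plate and 101 (69 and 32) with DESeq2.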

How the data were processed

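Single tdTomato+ cells from 8 plates (4 time points, replicates 1 and 2) were analysed. The deposited values are estimated counts per gene and cell, which the authors made from Smart-seq2 reads by transcript quantification without molecular identifiers; Salmon 0.13.1, Seurat and R 4.0.3 are named in the submitters' processing notes. Of the values 96.6% were whole, and the sums per plate were rounded to whole counts. The table held 15652 genes and 696 cells with 0 columns without a sample, and the study's filter (1000 genes or more, mitochondrial share not over 50%) was passed by all 696 cells. No doublet caller was run. Gene positions are on GRCm38, matched by symbol for 299 of 300 genes.

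The score was computed as described in the report, with 1 CPM added. The members and the 21 gene lists (269 genes, 16 of them absent from the table) were chosen with earlier results of these data known. Named genes were the 9 of the score, 10 at each extreme of the median ratio to the remaining cells, on 1 side on every plate (mean of at least 50 CPM), the 5 called with the highest and 5 with the lowest fold change in each contrast with plates that did not overlap and an average log2 CPM of 4 or more (the 5 of smallest p where fewer than 5 were called), without predicted gene models, the 4 of highest level and all called ones of each list, and 12 markers. Some genes that this rule names are not reported here. Basal cells were summed per plate where there were at least 3, and fitted with edgeR 4.0.16 (R 4.3.3, limma 3.58.1; TMM scaling, filter on low counts, quasi-likelihood test) over 7 plates and all 4 time points, with 3 residual degrees of freedom. Differences of change between basal and remaining cells were fitted with the plate as a block. P-values were adjusted over all genes tested (Benjamini-Hochberg). With 2 plates against 2, no exact permutation test can pass 0.05. Levels are CPM of summed counts on plain totals, not per gene length, so the order of genes by CPM within a list served only to choose which to name. Intervals for shares are exact binomial (Clopper-Pearson), and they and the limits from 0 counts cover the error of counting alone, because PCR copies were not told apart. DESeq2 1.42.0, other scalings, filters and member sets, the replicate block and leaving out each plate were the alternatives. Python 3.11.15 was used for the score and the descriptions.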

Additional observations from a re-analysis of the deposited data

Results flagged for a closer look

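These results stood out because the change over time in basal cells differed from the change in the remaining cells of the same plates, by a test of the difference itself (edgeR, plate block, adjusted over 13922 genes). Each value is the log2 change of basal cells minus that of the remaining cells, and a pair of mean CPM gives basal cells and then the remaining cells. Where a group has 0 counts the fitted difference depends on the prior count and is no bound. No cause was tested.

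At 1w pw1 against 0w the difference for Gjb2, connexin 26, was 15.31, with 2175 and 441 CPM against 0 and 97.8 at 0w (adjusted p = 5.7e-08). For Ncapg, a condensin subunit, it was 15.82, with 198 and 8.7 CPM against 0 and 56.03 (adjusted p = 1.13e-05). For Igfbp3, which binds insulin-like growth factors, it was 15.38, with 68.6 and 5.77 CPM against 0 and 24.0 (adjusted p = 0.00115). For Tmeff1 it was 13.75, with 35.04 and 10.4 CPM against 0 and 68.3 (adjusted p = 0.038), lost without either 0w plate or 1w pw2 replicate 1 (up to 0.316). In the other direction Defb6 had -20.99, with 0 and 8717 CPM against 21863 and 2787 (adjusted p = 3.54e-07), and -15.57 without the deepest cell of each plate, 1 cell of 0w replicate 2 having held 87158 of the 87174 Defb6 counts there. Krt2, a keratin of the upper epidermis, had -19.93, with 0 and 5945 CPM against 7.19 and 5.38 (adjusted p = 0.000161), lost without 0w replicate 1 or 1w pw2 replicate 1 (up to 1.0). Cyp2b10 had -14.91, with 0 and 219 CPM against 74.2 and 44.6, and Skint3 -14.72, with 0 and 333 CPM against 259.9 and 206 (adjusted p = 0.000102 for both), and Slc40a1, the iron exporter ferroportin, -14.53, with 0 and 77.3 CPM against 161 and 43.9 (adjusted p = 9.42e-05).

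At 8w pw1 against 0w the differences were 12.41 for Igfbp3, 10.65 for Ncapg, 9.41 for Gjb2, 8.24 for Csta1 and 7.98 for Phldb2 (adjusted p = 0.0463, 0.0288, 0.0287, 0.00207 and 0.0463). They were -13.65 for Fndc9, -12.49 for Klf8, -11.81 for Hbegf, -10.24 for Defb6 and -8.79 for Sort1 (adjusted p = 0.0463, 0.0368, 0.0463, 0.00477 and 0.0472). All 10 calls were lost when 1w pw2 replicate 1 was left out, and those of Phldb2, Fndc9, Hbegf and Sort1 also without the deepest cell of each plate (adjusted p = 1.0, 0.58, 0.105 and 0.755). A 0w plate had the same effect on each of them: replicate 1 for Csta1, either replicate for Igfbp3, Ncapg and Gjb2, and replicate 2 for the other 6 genes. So did 8w pw1 replicate 1 for Gjb2, Fndc9, Klf8, Hbegf and Sort1, and 8w pw1 replicate 2 for Igfbp3, Phldb2, Klf8 and Sort1. Gjb2 was at 3.62 and 26.8 CPM at 8w pw1 against 0 and 97.8 at 0w. Hbegf had 0 CPM in basal cells at 8w pw1 and 36.2 at 0w, against 24.4 and 21.3 in the remaining cells.

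At 1w pw2 against 0w Ncapg had 16.35, Gjb2 13.88, Ccnb1, cyclin B1, 11.51, Flrt2 10.61 and Gja1, connexin 43, 5.54 (adjusted p = 0.000878, 0.000166, 0.0466, 0.0394 and 0.0394). Ccnb1 was at 388 and 2.79 CPM against 4.64 and 66.7 at 0w, and its call was lost without 0w replicate 1 (0.0605). Ly6g6c had -15.99, Skint3 -14.42, Krt79 -12.32, Defb6 -9.76 and Cst6, cystatin M, -8.43 (adjusted p = 0.000483, 0.022, 0.000364, 0.0229 and 0.044), the last lost without 0w replicate 2 (0.127). Krt79 was at 1.08 and 5402 CPM against 1325 and 1498 at 0w, where 1 cell of replicate 2 held 2528 CPM and the other 7 cells 14.2. Without the deepest cell of each plate the difference was -8.65 for Krt79, -4.09 for Defb6 and -5.20 for Cst6, and all 3 were still called. With DESeq2 the calls of Ccnb1, Defb6 and Cst6 were lost. Among the 120 highest-scoring cells those of Ncapg, Gja1, Ly6g6c, Skint3, Krt79, Defb6 and Cst6 were lost, and among the 60 highest that of Ccnb1.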

How the results depend on the processing

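Of the named genes 1582 values kept direction and side of the threshold under an alternative, 221 lost their call, 72 gained one, 12 moved without a test and 4 turned direction: Slc2a1 at 1w pw1 without 0w replicate 1 (-0.19), Slc2a1 at 8w pw1 without 0w replicate 1 (-0.68) or without 8w pw1 replicate 2 (-0.64), and Krt15 at 1w pw2 among the 120 highest-scoring cells (0.13). Over all omissions of a plate Slc2a1 ran from -0.19 to 2.71 at 1w pw1 and from -0.68 to 2.23 at 8w pw1. Of the counts and shares 59 stayed close and 104 moved, and the cause was not tested. The shares of basal cells per plate stayed within their intervals.

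The replicate numbers did not pair the plates, since correlations of deviations were 0.0368, 0.0454 and 0.0552, and with the replicate block the calls numbered 223, 30, 47, 11 and 11 where 166, 5, 20, 2 and 2 were reported, first for the comparisons with 0w in order of time, then for 1w pw2 with 8w pw1 and with 1w pw1. In the same order DESeq2 gave 619, 207, 179, 44 and 26, with 21 higher and 23 lower in the fourth and 18 and 8 in the last. No filter gave 397, 157, 90, 21 and 19, totals without TMM 248, 52, 45, 10 and 17, and cells scaled equally 264, 23, 43, 13 and 18, with 15 higher and 3 lower in the last. The 60 highest-scoring cells gave 145, 17, 19, 4 and 1, the 120 highest 97, 1, 15, 0 and 8, only the compared plates 31, 0, 16, 2 and 20, and leaving out the deepest cell of each plate, an alternative chosen after seeing the data, 298, 24, 45, 16 and 21. Leaving out each plate gave 77 to 293, 0 to 144, 13 to 75, 1 to 17 and 0 to 12.

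For the differences of change (93, 29 and 14 calls) DESeq2 gave 366, 121 and 101, no filter 162, 60 and 68, no TMM 138, 44 and 46, equal scaling 323, 69 and 132, the 60 highest-scoring cells 119, 40 and 32, the 120 highest 27, 0 and 5, no deepest cells 161, 36 and 70, and leaving out each plate 33 to 189, 0 to 88 and 28 to 78. Genes over 2-fold higher on every plate (7) numbered 2 among the 120 cells, and those over 2-fold lower (29) numbered 17 with 10 CPM added. Leaving out each plate gave 7 to 20 and 30 to 53, namely 12 and 53 without 0w replicate 1 and 20 and 48 without 0w replicate 2. Cells are few on each plate, 5 to 21, and the low counts limit genes near 0.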
